A study of Caenorhabditis elegans with 2 samples.

Results

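The gene snpc-4 was examined in a ChIP-seq experiment on whole Caenorhabditis elegans young adults, as the 1 gene that carried the highest signal value among 19973 protein-coding genes. All animals were of strain OP606, with the allele unc-119(tm4063) and the integrated transgene wgIs606, which expresses F52B5.7 with a C-terminal GFP-FLAG tag. Animals of mixed sex were collected 63 h after starved L1 larvae were synchronised, and chromatin was immunoprecipitated through the tag with anti-GFP antibody, although the antibody field of the labels names F52B5.7 itself. There were 2 biological replicates in 1 group. Control chromatin named in the labels was not analysed here. Binding was therefore measured for a protein made from a transgene, in chromatin pooled over all tissues and both sexes.

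SNPC-4 is a subunit of the small nuclear RNA activating protein complex (SNAPc), which binds upstream of snRNA genes and starts their transcription by RNA polymerase II or III. In C. elegans the complex also serves the spliced leader RNA genes, and in the germline SNPC-4 acts with PRDE-1, TOFU-4 and TOFU-5 at piRNA genes. SNPC-4 carries Myb-type DNA-binding repeats, as does its human counterpart SNAPC4.

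Regions came from 4 lists on the ce11 build, all made by the authors. The candidate lists of replicate 1, of replicate 2 and of both pooled held 30000 regions each. The optimal list held 1032 regions kept after the irreproducible discovery rate (IDR) comparison. The submitters describe the candidate lists as peaks and background used as input for IDR, so a candidate need not be a bound region. In the rows compared here, optimal regions had the same signal and rank as in the pooled list, so these lists are not separate evidence. Of the optimal regions, 34 lacked a candidate in at least 1 replicate. The strength of a region is the authors' own signal value, a number with no stated scale. It was used as deposited to rank regions within a list, and to form ratios, sums and shares within and between lists. Rows that overlapped snpc-4 or the 2000 bp on either side of it numbered 1 in the optimal list, 3 in the pooled list, 5 in replicate 1 and 4 in replicate 2. Read depth is unknown from these lists. Since snpc-4 was picked by its signal, its signals and ranks are given as a description, with no test. With 1 gene and 2 replicates, values are given for each library.

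The gene lies on chromosome I at positions 8962322 to 8966129 (ce11, plus strand) and spans 3808 bp with 13 exons in each of 2 annotated transcripts. The strongest region covered positions 8962810 to 8963493, from 488 to 1171 bp downstream of the annotated 5′ end of the gene. Its summit lay at 8963236, in exon 3, 88 bases into that exon and in codon 256 of the 944 codons of the longer isoform. The region took in the last 267 bases of exon 2, all 72 bases of intron 2, all 227 bases of exon 3, all 45 bases of intron 3 and the first 73 bases of exon 4. Coding exons thus held most of it, and neither the 5′ end nor any base upstream of the gene fell inside. No other annotated gene overlapped the region. The coding exons of snpc-4 in RefSeq had the same borders as in Ensembl in 14 of 14 cases.

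In the plot of regions along the gene, the strong region stands in the same place in every list. The replicate 1 region ran from 499 to 1161 bp downstream of the 5′ end and lay wholly within the optimal one. The replicate 2 region ran from 484 to 1177 bp and contained the optimal one. Summits were at 8963234 in replicate 1 and at 8963236 in replicate 2, a distance of 2 bp, and the pooled and optimal rows were identical.

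**Figure D1:**
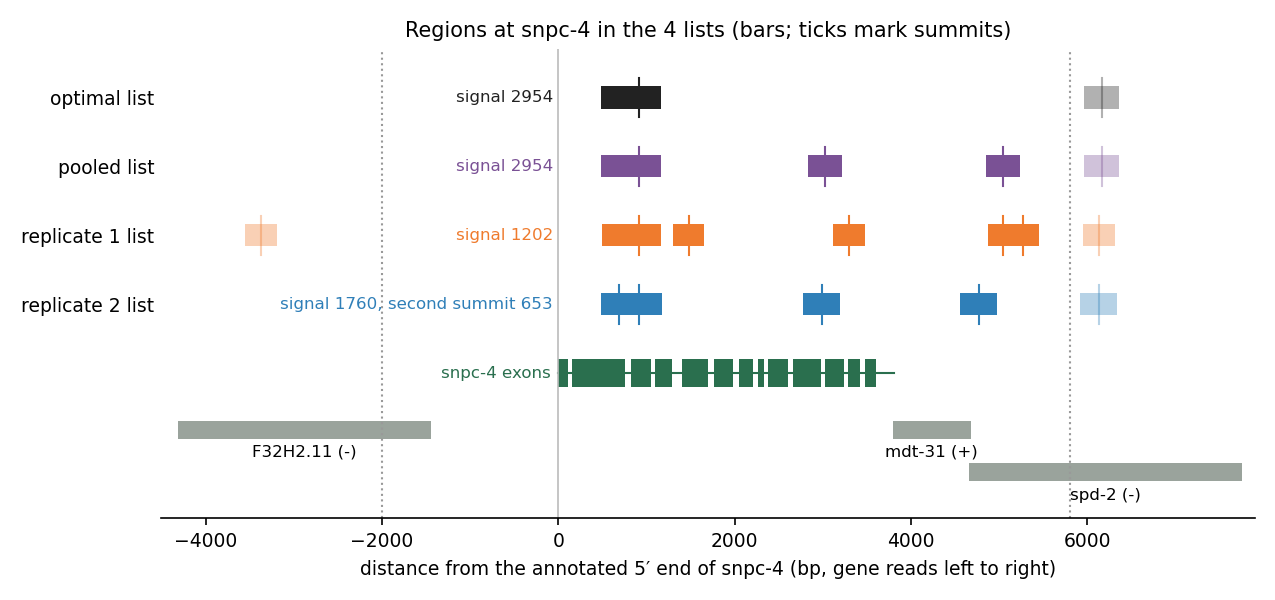
Regions listed at snpc-4 in the optimal, pooled, replicate 1 and replicate 2 lists, against distance in bp from the annotated 5′ end of the gene. Bars are regions, ticks their summits, pale bars regions just outside the window, green boxes the exons of the longer isoform, grey boxes other genes with their strand, and dotted lines the window of 2000 bp on each side. The strong region sits over exons 2 to 4 in all 4 lists, with signals of 2954 in the optimal list, 1202 in replicate 1 and 1760.3 in replicate 2, and nothing is listed in the 2000 bp upstream of the gene.

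Replicate 2 listed the strong region as 2 rows with the same borders and different summits. The stronger row had a signal of 1760.3 and the summit in exon 3, at rank 1. The second row had a signal of 653 and its summit at 8963013 in exon 2, in codon 205, at rank 2 of the list. The summits were 223 bp apart, one on each side of intron 2, and the second reached 37.1% of the first. Such double rows made up 0.0133% of replicate 2 rows, but 99.7% of the rows in that list had the most common width of 424 bp. The double rows were 694 and 684 bp wide, so their share among rows of other widths is higher. They formed 2 intervals in that list, and the other interval, also on chromosome I, had signals of 218 and 105. Replicate 1 had no double rows, and the pooled list had 7 such intervals without snpc-4 among them. The exon 2 summit was listed in replicate 2 alone.

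Signal values at snpc-4 stood apart from the next region in each list. In the optimal list snpc-4 had 2954, against 777 at rank 2, in pxn-1, which encodes a peroxidasin, where the summit is intronic. In replicate 1 it had 1202, against 448 at the same pxn-1 intron, which is 2.68 times as much. In replicate 2 it had 1760.3, which was 4.55 times the 387 of the next separate region, 282 bp upstream of the 5′ end of rpl-3 (a gene of the large ribosomal subunit). The fold over the next separate region thus differed between the libraries, as did that next region itself. Counted by rows, as planned, the fold was 2.68 in replicate 1 and 2.69 in replicate 2, whose second row is also at snpc-4. No other row in any of the lists reached 50% of the snpc-4 signal. Of the other optimal regions 47 exceeded 10% of it. The snpc-4 row alone made up 1.68% of the summed signal of the optimal list.

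**Figure D2:**
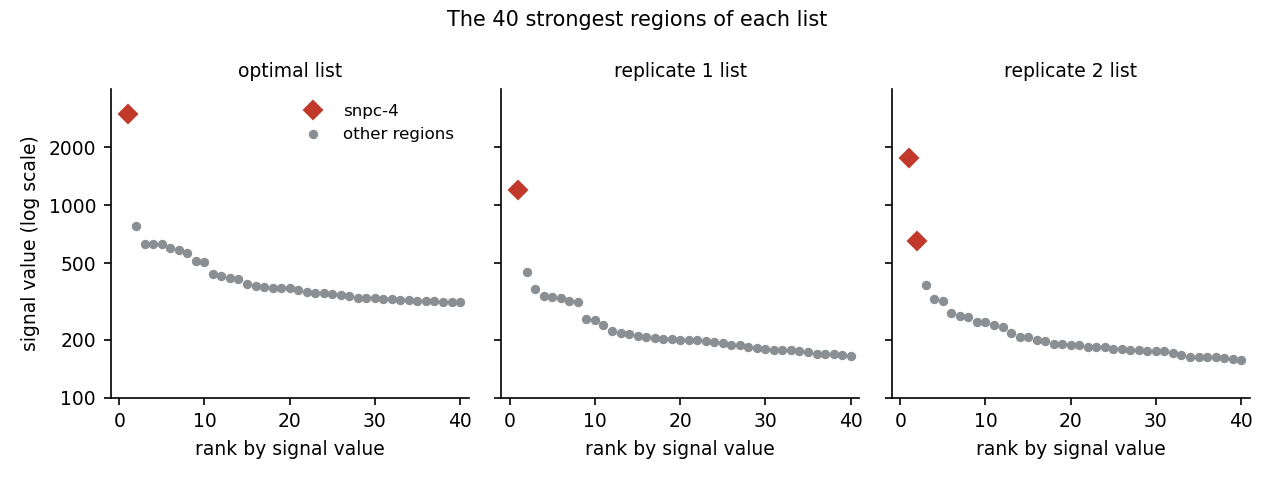
Signal value (log scale) against rank for the 40 strongest rows of the optimal, replicate 1 and replicate 2 lists. Red diamonds are snpc-4 rows, at 2954, at 1202, and at 1760.3 and 653, and grey points are other regions, whose highest values are 777, 448 and 387.

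Set against the median region of its own list, the snpc-4 signal was 20.1 times as high in the optimal list, 42.3 times in replicate 1 and 67.8 times in replicate 2. The lowest signal in the optimal list was 114.6, so its median is that of regions already selected. The replicate lists include background rows, so their medians are not those of regions kept after IDR. Across the 998 optimal regions with a candidate in both replicates, the replicate 2 signal divided by the replicate 1 signal was 1.47 at snpc-4, against a median of 0.958 and a range from 0.497 at the 5th to 1.82 at the 95th percentile. The ratio at snpc-4 was therefore on the replicate 2 side and inside the spread of the other regions. The pooled signal at snpc-4 was 0.998 of the sum of both replicates, which is 2962, and the median of the same quotient over the 998 regions was 0.9897. Replicate 2 supplied 59.4% of that sum at snpc-4 and a median of 48.9% over these regions.

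**Figure D3:**
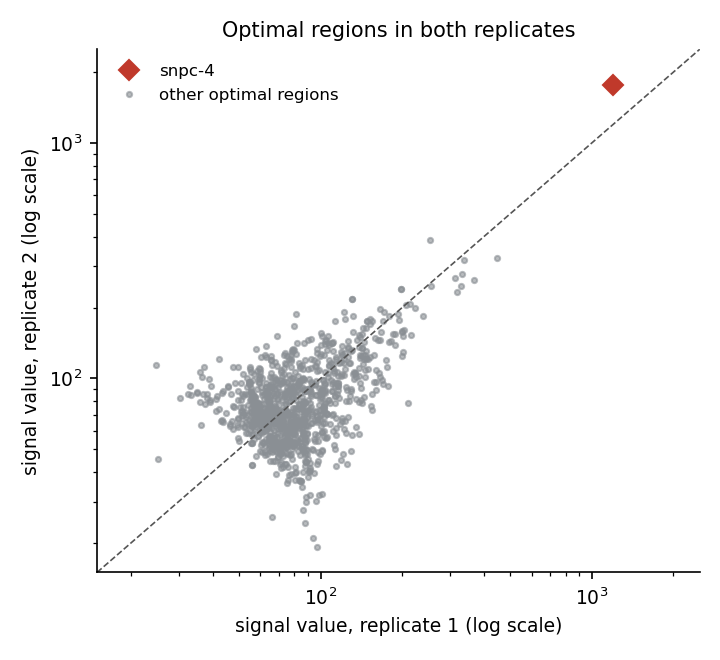
Signal value in replicate 2 against signal value in replicate 1 (both log scales) for the 998 optimal regions with a candidate in both. The red diamond is snpc-4, at 1202 in replicate 1 and 1760.3 in replicate 2, the grey points are all other regions, of which none exceeds 448 in replicate 1 or 387 in replicate 2, and the dashed line marks equal values.

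By distance of log2 signal in the 2 replicates, the regions nearest to snpc-4 were also the 5 next strongest, in another order. The pxn-1 region was nearest, at 2.82 on the log2 scale, with 448 in replicate 1 and 325 in replicate 2. It was followed by the intron of mdt-26, a Mediator subunit gene, at 3.07 with 337 in replicate 1 and 319 in replicate 2. Next came the rpl-3 region at 3.13, with 253 in replicate 1 and 387 in replicate 2. The region in cutl-18, a cuticlin-like gene, stood at 3.23 with 368 in replicate 1 and 262 in replicate 2, and that in frm-7 at 3.25 with 334 in replicate 1 and 277 in replicate 2. These distances span less than the gap between snpc-4 and the nearest of them, and all 5 regions were lower than snpc-4 in both replicates. In all, 9 optimal regions ranked in the first 10 of both replicates, snpc-4 among them.

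Small RNA genes adjoined several of these regions and not snpc-4. The nearest tRNA, snoRNA or snRNA gene to the snpc-4 summit was a tRNA gene 9995 bp away. The pxn-1 summit lay 9 bp from the snoRNA gene ZK994.7, the cutl-18 summit 44 bp from T03F7.8, and the frm-7 summit inside C51F7.4, both snoRNA genes. At mdt-26 and rpl-3 the nearest such genes were 39880 and 85678 bp away. Of the 25 strongest regions, 11 had a summit within 250 bp of a gene of these classes, against 23.8% of all 1032 optimal regions.

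A summit in coding sequence was found in 221 optimal regions or 21.4%, and in 3 of the 25 strongest. The coding share of the genome, which would give a background, was not computed. After snpc-4 the strongest coding summit was in dos-3 at 511, with 318 in replicate 1 and 234 in replicate 2. The following one lay in suro-1, also on chromosome I, at 441, with 198 in replicate 1 and 239.5 in replicate 2. The summit in prmt-5, an arginine methyltransferase gene, had 321, that in F42A6.6 had 259, and that in snrp-200, which encodes a helicase of the spliceosome, had 257. The snpc-4 signal was 5.78 times that of the next coding summit and 11.5 times that of snrp-200. These summits differed in their place along the gene. That of snpc-4 lay 914 bp from the 5′ end, those of dos-3 and suro-1 lay 3627 and 3218 bp from it, and those of prmt-5, F42A6.6 and snrp-200 lay 54, 71 and 44 bp from it. The median signal was 134.98 for coding summits and 150.5 for the other 811 optimal summits.

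The snpc-4 region was wide as well as strong. It spanned 684 bp in the optimal list, 663 bp in replicate 1 and 694 bp in replicate 2. Of the optimal regions, 833 had exactly 390 bp, the width of 99.2% of pooled rows, and the highest signal among those was 279.5. The other 199 had a median width of 180 bp. Only 4 optimal rows, in 3 intervals, were wider than snpc-4. In replicate 1 there was 1 wider row, and in replicate 2 there were 2. None of the 25 strongest optimal regions had the common width, and their median was 299 bp.

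**Figure D4:**
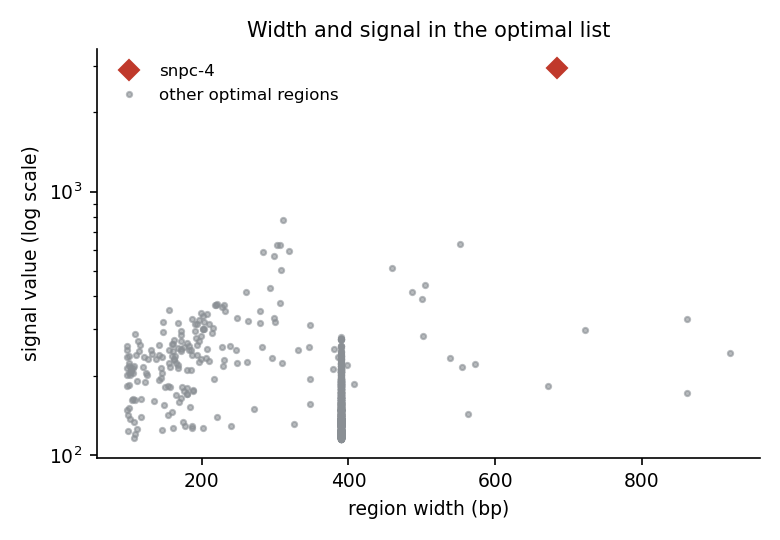
Signal value (log scale) against region width in bp for the 1032 optimal regions. The red diamond is snpc-4, at 684 bp and 2954, and the grey points are all other regions, of which 833 form the column at 390 bp with signals up to 279.5.

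Apart from the strong region, the gene and the 2000 bp around it held only candidates much weaker than that region, all downstream of it. The pooled list had a candidate in exon 11 with a signal of 43.5 at rank 16905 and one beyond the gene, in spd-2, with 39.8 at rank 19834. These were 1.47% and 1.35% of the snpc-4 signal and below the median of 46.03 for that list. Their −log10 q-values were 0.42 and 0.35, against 2.98 at the strong region. In replicate 1 there were candidates in exon 5 (26.2) and exon 12 (20.8) and a pair in spd-2 (37.4 and 28.3). In replicate 2 there was one in intron 10 (23.5) and one in spd-2 (47.97, at rank 2600). The spd-2 candidates of 37.4 (rank 7447) and 47.97 were 1.32 and 1.85 times the medians of their lists. The other side candidates of the replicates were below those medians. The exon 5 candidate of replicate 1 ran from 1298 to 1657 bp downstream of the 5′ end, beyond the end of the strong region at 1161 bp, and no candidate of the other lists overlapped it. A position without a candidate may still carry signal under the lowest listed values, which were 30.1 in the pooled list, 18.8 in replicate 1 and 17.6 in replicate 2.

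Many genes had as many candidates as snpc-4. The pooled list had 3 summits within the window, a count reached by 39.2% of protein-coding genes. Replicate 1 had 5, a count reached by 17.01% of genes, and replicate 2 had 4, a count reached by 26.2%. An optimal summit in such a window, of which snpc-4 had 1, was found for 1633 genes or 8.18%.

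Genes next to snpc-4 were F32H2.11 upstream, 1439 bp away on the minus strand, mdt-31, a Mediator subunit gene whose annotation shares 16 bp with the 3′ end of snpc-4, and spd-2, a gene required for centrosome assembly, 855 bp downstream on the minus strand. No list had a summit in mdt-31 or in the part of F32H2.11 inside the window. An optimal region in spd-2 (signal 119.8, rank 913) began 160 bp beyond the edge of the window, with its summit at 8968484 in coding sequence. Its signal was 47.3 at rank 3431 in replicate 1 and 65.8 at rank 936 in replicate 2. The spd-2 summit lay 5248 bp from that of snpc-4 and was the nearest optimal summit on that side, with a signal lower by a factor of 24.7. On the other side the nearest optimal summit lay 94707 bp away, 233 bp from F55H12.2, with a signal of 149 at rank 486. The median gap between neighbouring optimal summits on chromosome I was 50.6 kb over 177 gaps.

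On chromosome I, which held 178 optimal regions, the next strongest region after snpc-4 was that at ints-8, at position 13463962, with 504 at rank 10. The snpc-4 signal was 5.86 times as high and made up 8.86% of the summed signal of optimal regions on the chromosome. The tagged gene F52B5.7 is on the same chromosome, 647 kb from snpc-4.

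The sequence under the region occurs once in the ce11 assembly. All 649 words of 36 bases within it were found at a single place in the genome, as was the case for every such word in 783 of the 1032 optimal regions (75.9%). A BLAST search of the region against the assembly returned 0 alignments other than to itself. Its GC content was 38.01%, close to the 38.18% of the whole snpc-4 gene with introns. The coding sequence of snpc-4 alone had 42.9%, and the median over optimal regions was 43.1%. Of the optimal regions 77.6% had a higher GC content.

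Short words of 6 bases were searched on both strands, all but GTTTCA chosen from earlier results of these data. GTTCGA, known from the internal promoter of tRNA genes, matched at 2 places in the snpc-4 region, with its leftmost base 243 bp left of the summit (671 bp from the 5′ end of the gene) and 83 bp right of it (997 bp from the 5′ end). Windows of 684 bp on the 1032 optimal summits held it in 35.2% of cases. Windows elsewhere in the genome were not searched, so no background share is given. AGAGCG had no match in the snpc-4 region and was in 27.6% of these windows. No match was found for GAACCC, present in 24.3% of windows, for ACCACT, present in 31.1%, or for ACGCAG, present in 27.8%. GTTTCA, part of the motif upstream of piRNA genes, also had no match and was in 41.8% of windows. In the 101 bp around the snpc-4 summit none of the 6 words was found, and each of them was in only 5.91% to 12.6% of such windows on the optimal summits.

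Of 9 other genes for SNAPc subunits and piRNA partners, none had an optimal summit in a window of the same kind, and 8 had a pooled candidate, against 8.18% and 68.1% of all protein-coding genes. Replicate values for listed genes are those of the strongest summit of that replicate in the window, which need not be the pooled summit. The strongest pooled candidate was at -881 bp from the 5′ end of snpc-3.4, a SNAPc subunit gene, with 102 at rank 1471. The strongest values in the snpc-3.4 window were 49.0 in replicate 1 and 49.6 in replicate 2. At prde-1, the gene of the piRNA partner PRDE-1, the strongest pooled candidate had 95.3. The strongest values in the prde-1 window were 73.9 in replicate 1 and 43.6 in replicate 2. For snpc-1.2 the strongest pooled candidate had 69.7, for snpc-3.2 58.9, for snpc-1.1 58.2, for tofu-4 42.1, for tofu-5 39.6 and for snpc-1.3 37.6. For 4 of the 8 genes, snpc-1.1, snpc-1.3, tofu-4 and tofu-5, the summit lay nearer to another protein-coding gene. No candidate was listed at snpc-3.1. The median of these best candidates was 58.5, against 64.01 over the 13596 protein-coding genes with one, and all were below the 2954 of snpc-4.

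Other genes of snRNA and small RNA synthesis carried optimal regions in a few cases. Among 11 Integrator genes, whose products process the 3′ ends of snRNAs, 3 had an optimal summit. Replicate values are again the strongest of that replicate in the gene's window, not matched to the pooled summit. They were ints-8 (504, with 256 in replicate 1 and 248 in replicate 2), ints-7 (119, with 53.3 in replicate 1 and 68.4 in replicate 2) and ints-11 (118, with 67.1 in replicate 1 and 70.9 in replicate 2). Among 11 genes of RNA polymerase III and its factors, 2 had one, namely rpc-2, a polymerase III subunit gene (169.6, with 89.7 in replicate 1 and 90.1 in replicate 2) and rpac-19, a gene of a subunit shared with polymerase I (163, with 42.3 in replicate 1 and 121 in replicate 2). The rpac-19 summit lay nearer to ubc-7 than to rpac-19. Together these were 5 of the 31 listed genes other than snpc-4, beside the 8.18% of all protein-coding genes. The other Integrator genes had pooled candidates from 32.1 at ints-4 to 90.2 at ints-9, with none at ints-6, and for 2 of these 7 genes the summit lay nearer to another protein-coding gene. The replicates differed at ints-4, where replicate 2 had a candidate of 81.2 at rank 473, above its values at ints-7 and ints-11, and replicate 1 had none. The other polymerase III genes had pooled candidates from 31.3 at tftc-5 to 100.4 at rpac-40, and for 6 of these 8 genes the summit lay nearer to another protein-coding gene. The tftc-5 summit lay inside snpc-3.4, and the neighbours rpc-25 and tftc-3 shared a candidate of 73.1 that was nearest to ZK856.16. At rpc-11 there was no pooled candidate, and replicate 2 alone had one, of 44.4. The median best candidate was 77.7 for Integrator genes and 73.1 for polymerase III genes, against 64.01 over all genes with one. The value of 73.1 is the candidate shared by rpc-25 and tftc-3. A longer gene has a wider window, and gene length was not matched for any of the 3 lists.

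**Figure D5:**
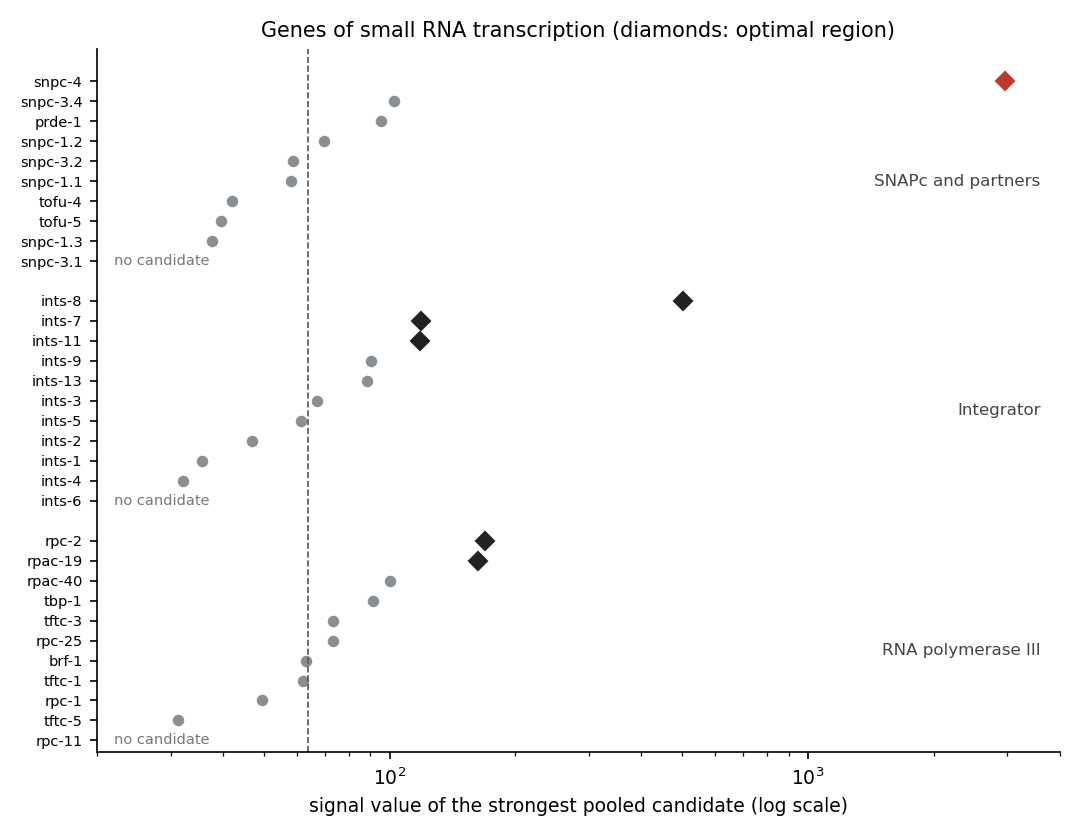
Signal value (log scale) of the strongest pooled candidate for each gene of 3 lists, in a window that adds 2000 bp on each side. Diamonds mark genes with an optimal region, red is snpc-4, grey points are genes with a pooled candidate only, and the dashed line is the median of 64.01 over all protein-coding genes with a candidate. The snpc-4 value of 2954 lies apart from the next, ints-8 at 504.

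Rows like those of the strong region were listed on the ce10 build. A match was taken as the same chromosome, width and summit offset with the signal within 0.1%. Each row of the strong region, 5 in all over the 4 lists with the second row of replicate 2 counted, had exactly 1 match, at the same rank as on ce11. Signal was part of the match, so the rank largely follows from it. The place of the matched ce10 rows in the gene was not checked. The other 8 rows of the window had between 2 and 14 matches each, since most rows share one width and offset, and are not identified on ce10.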

How the data were processed

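The signal values and −log10 q-values per region were deposited by the authors, in peak lists on ce10 and ce11. Per the submitters' file manifests, candidate lists came from the alignments of 1 replicate, or of both pooled, with the control, and the optimal list from comparing these lists by IDR. Aligner, peak caller, versions and IDR cutoff were not given in the sources used here. Summits were taken from the deposited offset of each summit from its region start, in bp. The q-values reach a ceiling in 476 optimal regions, snpc-4 among them, and were not used for ranking. Replicates were compared as deposited, with no rescaling.

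Regions were placed on Ensembl release 115 gene models (WBcel235, the ce11 assembly), with at least 1 bp of overlap with the gene and 2000 bp on each side. Positions are 1-based, and no coordinates were converted between builds. Mitochondrial genes were left out. Copies were sought with BLAST 2.17.0 (expectation limit 0.001, no masking). Tables were made with Python 3.11.15 and pandas 2.3.3, and the placement of summits was tested on simulated regions. No significance test was run, because snpc-4 was chosen by the values described. Gene and gene lists were chosen with earlier results of these data known. The symbols dic-1 and bdp-1 were listed and not found. Named are snpc-4, the genes in its window, genes at the neighbouring, next strongest, most similar and strongest coding summits, and list members with an optimal region. Other list members were named to account for the list.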

Additional observations from a re-analysis of the deposited data

How the results depend on the processing

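The fold of snpc-4 over the next row was 3.80 in the optimal, pooled and ce10 optimal lists and in the 516 strongest optimal regions. The pooled list and the 516 regions hold the same first 2 rows as the optimal list, so these settings could not change it. The ce10 list comes from the same libraries. In single replicates the fold ranged from 2.68 to 4.55. The value of 4.55 counts both replicate 2 rows of snpc-4 as 1 region, an alternative chosen after seeing the data. The planned value of 2.69 for replicate 2 does not. The summit lay 912 to 914 bp from the 5′ end. Candidates in the window numbered 3 in the pooled list, 3 to 5 in single replicates, 2 in the gene body or with 500 bp around it, and 7 with 10000 bp. Of the 31 other listed genes, 5 had an optimal summit, beside 8.18% of all protein-coding genes. With the strongest 1032 rows of 1 replicate, 4 had a summit in replicate 1 and 6 in replicate 2, beside 7.99% and 8.32%. With windows of 10000 bp there were 10, beside 20.2%, and with those 516 regions there were 3, beside 4.45%. No paired analysis was possible because all samples belong to 1 group. Depth per library is unknown, which limits what a fold between the replicates shows.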
